A study of Mus musculus with 8 samples.

Results

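The translation initiation and elongation factors are the proteins, other than the ribosome itself, that start, extend and end each round of protein synthesis, and their own mRNAs were followed here in mature dendritic cells (maDC). Members were chosen by gene symbol alone: the factors Eif1 to Eif6 without the Eif2ak kinases, the factors Eef1 and Eef2 with the enzymes named after them, the release factors Etf1 and Gspt1, and the Pabpc poly(A)-binding proteins, with pseudogenes left out. The rule found 64 genes among the 11742 genes listed in both deposited tables, and 62 of them were among the 10320 genes whose mean reached 1 RPKM (reads scaled to gene length and to library size) both over the input and over the ribosome libraries. Of the 62, 12 belong to eIF3, 11 to eIF2 and its partners, 15 to eIF4, 13 to elongation and 11 to the remaining roles, called the other group below (eIF1, eIF5, eIF5B, eIF6, release and poly(A) binding).

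The cells were grown from the bone marrow of C57BL/6 mice aged 6 weeks with GM-CSF (10 ng/ml) and IL-4 (1 ng/ml), selected on CD11c beads on day 5 and stimulated for 24 h with lipopolysaccharide (LPS, 100 ng/ml), the bacterial agonist that matures them. Both genotypes had this treatment, and cycloheximide was added to the medium of all cells shortly before collection. Mettl3KO is Mettl3 fl/fl with Cre driven by the CD11c promoter, so the deletion of Mettl3, the catalytic subunit of the enzyme that places m6A in mRNA, depends on that promoter having been active in the cell, and Mettl3WT are littermates. From every lysate, polyadenylated mRNA (input) and the fragments shielded by single ribosomes (RPF) were sequenced, in 2 replicates, so that the 8 libraries form 4 groups: input of either genotype and RPF of either genotype. Neither the labels nor the methods tie mice to replicates, so p-values measure only the spread between these libraries, which may be technical. For RPF and RPF/input it is mostly a spread shared across genes, not that of the single gene.

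In initiation, eIF2 brings the initiator tRNA to the small ribosomal subunit and eIF2B recharges it with GTP, eIF3 holds the assembly together, eIF4E, eIF4G and eIF4A select and unwind the capped mRNA, and eIF1 and eIF5 govern recognition of the start codon. In elongation, eEF1A delivers aminoacyl-tRNA, eEF2 moves the ribosome and eIF5A helps it over difficult stretches, until eRF1 (Etf1) and eRF3 (Gspt1) release the chain. Protein synthesis is known to rise soon after dendritic cells meet LPS. Many of these factors also have processed pseudogenes, copies of the mRNA scattered through the genome, from which short reads cannot always be told apart.

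Depth could be recovered for replicate 2 only, with 4835140 and 5276406 reads in its WT and KO RPF libraries and 9920474 and 8794578 in its WT and KO input libraries, so the RPF of replicate 2 rested on about as many reads in both genotypes. As deposited, the median gene differed between KO and WT by -0.46 (log2) in RPF of replicate 1 and by -0.03 in replicate 2, and by -0.03 and -0.01 in input. Each log2 KO/WT value below is therefore called relative when the median of all tested genes in the same replicate and measure has been subtracted. Mettl3 in input was 6.97 RPKM for WT and 6.27 for KO in replicate 1 but 10.1 and 11.9 in replicate 2, so replicate 2 goes against its label on this measure, which is a limited check because the whole gene also holds exons outside the deletion. WT and KO below mean libraries labelled so; in RPF, Mettl3 was 34.0 and 15.3, then 9.63 and 5.88 RPKM. All 10 dendritic cell markers were present, summing to between 6365 and 9287 RPKM in the input libraries. Of 8 neutrophil markers, 7 were lower and 0 higher in KO input in both replicates (sum 913.5 to 580.4 and 1772 to 1589 RPKM). In RPF, however, 5 of the 8 were higher and 1 lower in KO in both (relative medians 0.63 and 0.14). Of the 10 dendritic cell markers, 5 were lower and 1 higher in KO RPF in both replicates (relative medians -0.18 and -0.60). In KO input, 0 of them were lower and 3 higher (0.43 and -0.09). Of 8 macrophage markers, 3 were lower and 1 higher in KO RPF (-0.85 and 0.06), and 2 and 0 in input. Of 6 T and NK cell markers, 0 were lower and 3 higher in KO RPF (0.43 and 1.25), and 2 and 3 in input. Of 5 tested mast cell and basophil markers, 4 were lower and 1 higher in KO input in both replicates (relative medians -0.61 and -0.51). In KO RPF, 2 of them were lower and 1 higher (0.72 and -0.49). Of 6 proliferation genes, 5 were higher and 0 lower in KO RPF in both replicates (sum 124.6 to 282.7 and 76.8 to 170.7 RPKM). In KO input, 1 was lower and 2 higher. Their part in the values below was not tested, and in bulk cells a smaller share of a cell type and less RNA per cell cannot be told apart.

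The coding sequences of the factors differed widely in how much of them is found only once in the genome. Windows of 28 bases, a usual footprint length, were moved along each coding sequence and looked up on both strands of the mouse genome (mm10). For most members nearly every window was unique, but none of the windows of Eif1 was, and only 0.586% of those of Eif4a1, 4.04% of Eef1g, 4.81% of Eif2s3x, 10.3% of Eef1a1, 12.1% of Eif4e and 14.2% of Eif2s2 were. The windows below, taken from the reference genome and read along the coding strand, show the contrast: those of the 3 factors with copies are, for each gene, the window with the most matching places, and that of Eif3f, a subunit of eIF3, is its start, which has 1.
Eif1, at chr11:100320982-100321009 (+), 17 places: cagaatatggagaagtaattcagctaca
Eef1a1, at chr9:78479281-78479308 (-), 14 places: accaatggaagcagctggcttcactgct
Eif4a1, at chr11:69670227-69670254 (-), 7 places: aagcccagtctgggactgggaaaacagc
Eif3f, at chr7:108934432-108934459 (+), 1 place: atggcttctccggccgtaccggctaatg

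For several members with copies the footprint level differed widely between the replicates, whose tables may have been scaled separately. Eif1, which scans for the start codon, had 354 RPKM in WT input and 320 in KO input of replicate 1 and 189 and 185 in replicate 2, so its mRNA was abundant throughout. Its RPF was 481 RPKM for WT and 549 for KO in replicate 1 but 1.83 and 2.80 in replicate 2, where these values stand for 3 and 5 reads. Eif4a1, the cap-side RNA helicase, had 3779 RPKM in WT RPF and 1151 in KO RPF of replicate 1 and 71.5 and 60.8 in replicate 2, with input between 193 and 223 RPKM in all 4 libraries. Its RPF/input in WT thus stood at the 98.2 percentile of tested genes in replicate 1 and at the 7.97 percentile in replicate 2. Swings of this kind were not confined to members with copies. In WT, Eif4h (97.5% unique) went from the 4.09 to the 69.1 percentile, and Eif3a (97.7%) from the 96.6 to the 42.2. Levels of all these genes are therefore uncertain. For those with copies, reads could also have been split between gene and copies in different ways in the 2 tables. How reads with several matches were counted is not given in the sources used here, and the cause of the swings was not tested.

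Over all 62 tested members, the relation of unique share to RPF/input differed between the replicates. It is described here by a split at 50% unique windows that was set after the values were known. In replicate 2, 11 of the 12 members under 50% had a lower RPF/input than the median gene in WT, and 12 of 12 had in KO, with medians of -1.49 and -1.68 (log2, relative to the median gene). The 50 members at or above 50% had medians of 0.00 and -0.16, and 25 and 28 of them lay below the median gene. In replicate 1 the 12 members had medians of -0.66 for WT and 0.06 for KO, with 7 and 5 of them below the median gene, and the 50 others had medians of -0.08 and 0.15. Across the 62 members, which share libraries and are not independent, Spearman's rho between the unique share and RPF/input was 0.42 and 0.44 in replicate 2 and 0.01 and 0.05 in replicate 1. Low RPF/input went with copies in both genotypes of replicate 2, and the order of the members by unique share was not seen in replicate 1.

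**Figure D1:**
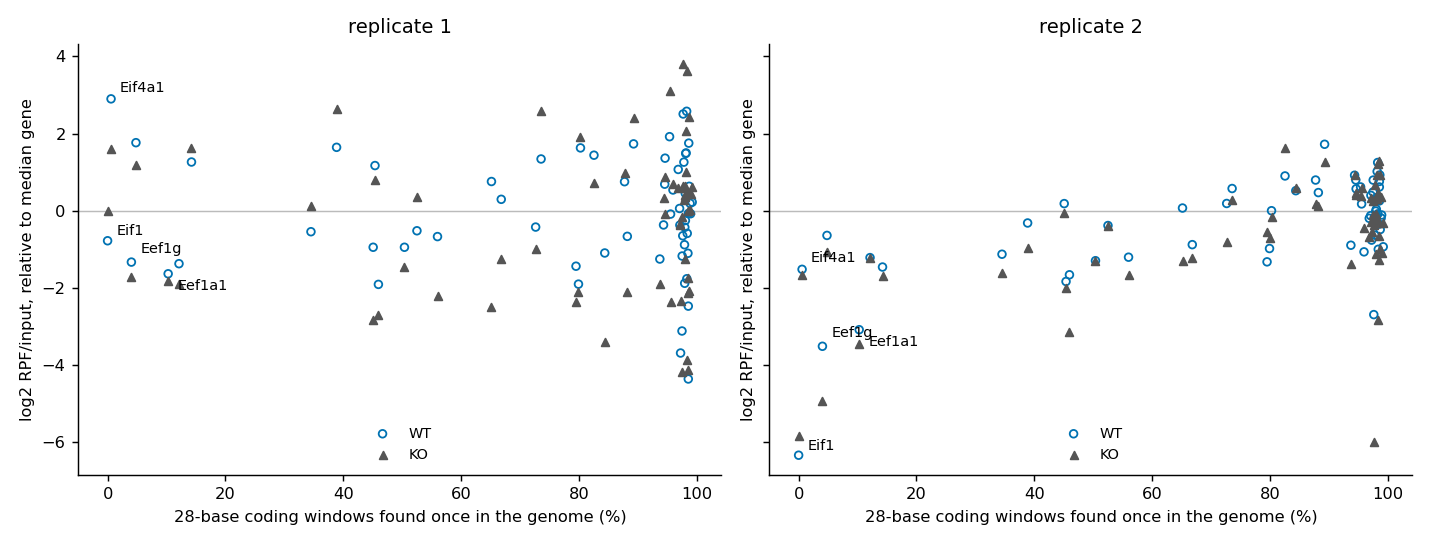
Each tested factor by the share of its 28-base coding windows found once in the genome (x axis, percent) and its log2 RPF/input relative to the median gene (y axis), in replicate 1 (left) and replicate 2 (right), with circles for WT and triangles for KO. In replicate 2 all 12 members under 50% lie below 0 in KO, while in replicate 1 they lie on both sides.

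The mRNAs of the factors were abundant. The median member had 35.9 RPKM in WT input of replicate 1 and 44.8 in replicate 2, against 10.7 and 13.4 for the median of tested genes, and 31.9 and 46.7 in KO input. The 62 members held between 1.18% and 1.47% of the input RPKM of tested genes in the 4 input libraries. By group, the median in WT input was highest for eIF3, the large scaffold, at 61.0 and 79.6 RPKM. The median of eIF4 was at 39.0 and 43.8 and that of eIF2 at 15.63 and 17.98, and that of elongation was lowest at 9.91 and 15.2, where abundant core factors stand beside methyltransferases near the level of the median gene, such as Eef1akmt1 and Eef1akmt2. The other group lay between eIF3 and eIF2 at 37.6 and 51.5.

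The highest mRNA was that of Eef1a1, which carries aminoacyl-tRNA to the ribosome, with 1561 RPKM in WT input and 1517 in KO input of replicate 1 and 2005 and 1972 in replicate 2. Other abundant mRNAs were those of Eef2, the translocase, at 403 and 436, then 570 and 539 RPKM, and Pabpc1, the main cytoplasmic poly(A)-binding protein, at 300 and 238, then 383 and 387. These levels differed more between replicates than between genotypes. Highest in eIF3 was Eif3f with 170 and 147, then 197 and 184 RPKM, and highest in eIF2 by the mean of both WT inputs, though not in replicate 1 alone, was Eif2s3y, the Y-linked gamma subunit, with 23.9 and 19.3, then 51.8 and 58.4. Its X-linked partner Eif2s3x had 33.6 and 44.0, then 17.0 and 15.7, so the order of this pair turned between the replicates. The sex of the mice, on which a Y-linked mRNA depends, is not given in the sources used here. Only 4.81% of the windows of Eif2s3x were unique, so its level is uncertain, although that share describes coding windows of footprint length and not the whole mRNA.

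RPF relative to input showed the groups at different levels, and only some of this held in both replicates. The eIF4 group lay below the median gene in all 4 pairs of libraries, at relative medians (log2 RPF/input) of -1.10 for WT and -1.89 for KO in replicate 1 and of -0.34 and -0.71 in replicate 2. The other group lay above it in all 4, at 0.76, 0.72, 0.62 and 0.29. The eIF2 group changed sides, at 1.26 and 1.00 in replicate 1 and -0.32 and -0.45 in replicate 2. The eIF3 group was at -0.46, -0.23, -0.15 and -0.22, and elongation at -0.42, 0.03, -0.26 and -0.40. Of the 15 eIF4 members, 3 (WT) and 4 (KO) were above the median gene in replicate 1, and 4 and 2 in replicate 2, against 4 and 5, then 4 and 5 of the 12 of eIF3.

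Some members stayed in the upper or the lower part of this scale in every pair. How many of all tested genes did so was not counted. Etf1, the release factor that reads stop codons, stood at the 96.9 and 98.6 percentile of RPF/input in WT and KO of replicate 1 and at the 89.0 and 87.1 in replicate 2. Gspt1, its GTPase partner, stood at the 89.4 and 93.8, then the 94.6 and 88.2. Both release factors therefore stood at or above the 87.1 percentile in every pair. Eif4b, which stimulates the helicase eIF4A, was at the 12.8 and 10.4, then the 17.1 and 25.97 percentile, and Pabpc1 was at the 12.7 and 5.64, then the 6.31 and 1.47. Eef1g, the scaffold of the eEF1B exchange complex, was at the 20.3 and 14.5 percentile in replicate 1 and at the 0.663 and 0.247 in replicate 2, and Eef1a1 at the 16 and 13.3, then the 0.970 and 1.07, both with few unique windows.

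**Figure D2:**
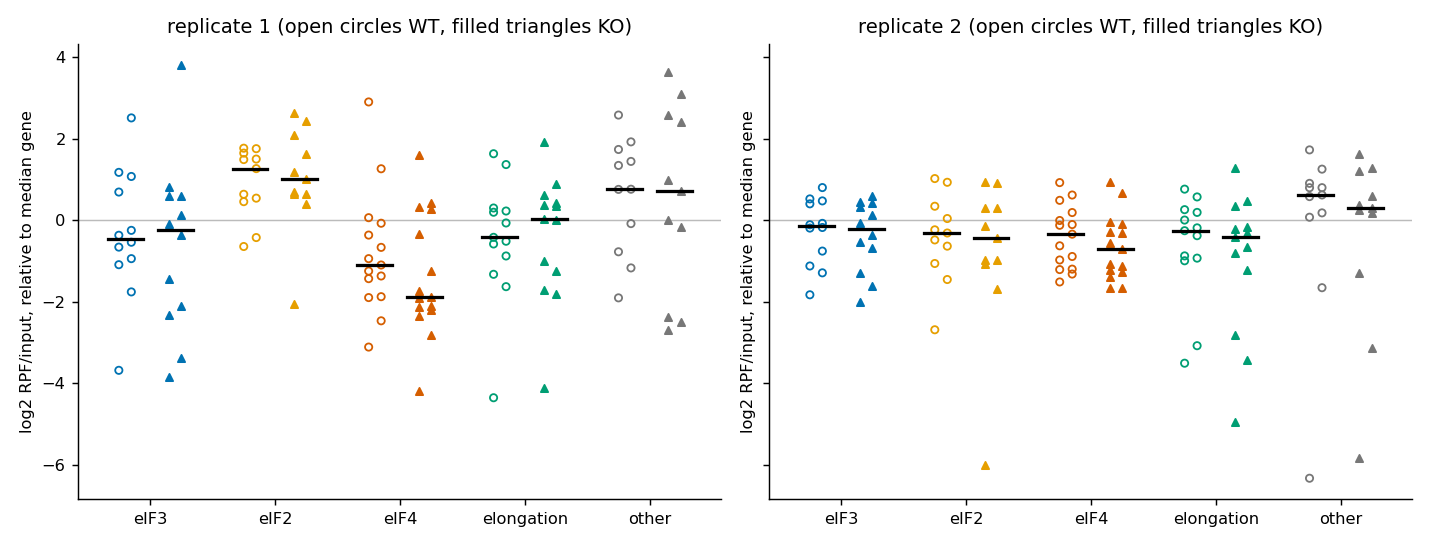
Log2 RPF/input of each tested factor, relative to the median gene of the same library pair (y axis), by group (x axis), for replicate 1 (left) and replicate 2 (right); circles are WT, triangles KO, and black bars are group medians. The eIF4 bars lie below 0 in all 4 pairs and those of the other group above 0, while eIF2 changes sides between the replicates.

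Between genotypes, the mRNA levels of the factors moved little. No gene passed an adjusted p of 0.05 in input by limma with Benjamini-Hochberg adjustment (0% of 10320 tested, with 219 lower and 120 higher at an unadjusted p under 0.05), and none of the 62 members had an unadjusted p under 0.05. Relative KO/WT values of members ran from -0.87 (Eif4g3, a scaffold of the eIF4G family) to 0.54 (Eef1b2) in replicate 1 and from -0.58 (Eef1e1) to 0.67 (Eef1a2) in replicate 2, so none reached a 2-fold change. Of the 62, 15 were lower and 14 higher in both replicates, against 23% of tested genes on each side, and the median was 0.00 and -0.01. The members' shares of 24.2% and 22.6% lay beside that background.

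The largest input differences of one sign in both replicates were still small. Eif3m, a subunit of eIF3, had 62.4 RPKM for WT and 84.8 for KO in replicate 1 and 64.7 and 78.6 in replicate 2. Eif4a2, the paralogue of Eif4a1, had 111 and 151, then 109 and 124. In both, the KO libraries were higher than both WT libraries. Eif3a, the largest eIF3 subunit, had 48.9 and 32.4, then 87.1 and 83.5 RPKM, and Eif4e2, a cap-binding homologue of eIF4E that represses translation, had 34.4 and 25.0, then 29.4 and 26.03. For Eif3a the difference between replicates was larger than that between genotypes, and the smallest adjusted p of any member in input was 0.9996 (limma).

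Among members, KO/WT values spread far wider in footprints than in mRNA. In RPF, relative values ran from -3.15 (Eif5) to 1.73 (Eif5a2) in replicate 1. In replicate 2 they ran from -3.08 (Eif2s3y) to 1.54 (Eif4e3). Whether this spread differs from that of all tested genes was not tested. The 2 replicates did not order the members alike, with a Spearman's rho between them of -0.01 over 62 members, so what follows gives both values for each gene. Relative RPF was lower in KO in both replicates for 23 members and higher in both for 10, or 37.1% and 16.1% of members, where 24.4% of tested genes fell on each side. The medians over members were -0.09 and -0.21. The 12 members under 50% unique windows held 7 of the lower and 1 of the higher ones, and the 50 others held 16 and 9. By adjusted p, 1 member passed, Eif5, among 16 genes of 10320 (0.155%) that were lower in KO, with 9 higher. At an unadjusted p under 0.05, 7 of the 62 members were lower and 0 higher, against 419 and 159 of the 10320 tested genes. These fits were not relative: they include the shift of the median gene, -0.46 in replicate 1 and -0.03 in replicate 2.

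**Figure D3:**
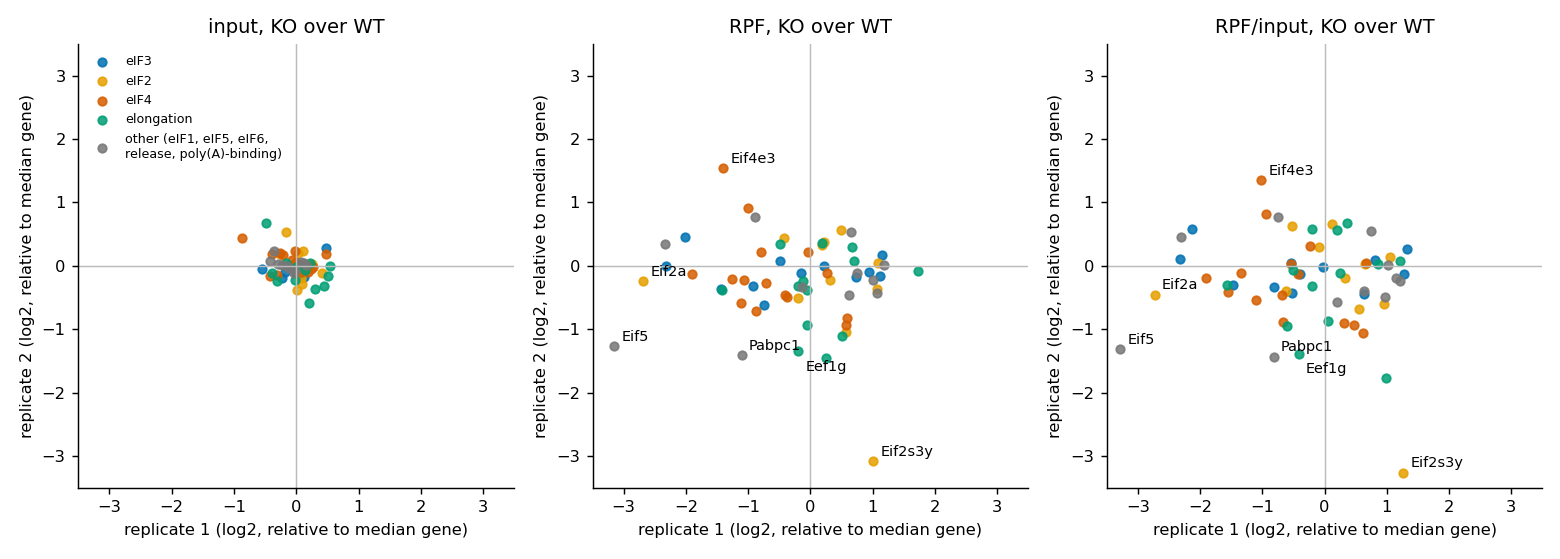
Relative log2 KO/WT of the 62 tested factors in replicate 1 (x axis) and replicate 2 (y axis) for input, RPF and RPF/input, coloured by group. Input values cluster near 0, while RPF values spread widely, with Eif5 and Pabpc1 in the lower left and Eif2s3y and Eif4e3 on opposite sides in the 2 replicates.

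Eif5, the GTPase-activating protein that triggers GTP hydrolysis by eIF2 once the start codon is found, lies at chr12:111538101-111546753 (mm10). Its mRNA had 48.8 RPKM in WT input and 52.1 in KO input of replicate 1 and 51.5 and 53.1 in replicate 2. Its RPF was 194 RPKM for WT and 15.5 for KO in replicate 1 and 53.7 and 21.6 in replicate 2, the latter from 334 and 147 reads. Both KO libraries were below both WT libraries in RPF, while input hardly differed. The relative log2 KO/WT in RPF was -3.15 and -1.26, and the fitted value over both replicates was -2.45 (SE 0.61, adjusted p = 0.0278 by limma), which includes the shift of the median gene. Counting error alone put the unadjusted log2 ratio of replicate 2 between -1.60 and -1.03 (exact binomial interval, 95%). The SE of the fit is mostly shared across genes and hardly reflects how far -3.15 lies from -1.26. The call depended on the scaling and on how the variance was modelled. With each library centred on its median the fitted value was -2.21 with an adjusted p of 0.994 (limma), and no member passed. With no intensity trend in the variance it stayed at -2.45, with an adjusted p of 0.0735 (limma). Of the Eif5 windows, 65.2% were unique.

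Pabpc1 (chr15:36595658-36609581) was the other member far lower in KO in both replicates, although its adjusted p was 0.576. Its RPF was 186 RPKM for WT and 62.6 for KO in replicate 1 and 120 and 44.1 in replicate 2, from 1106 and 444 reads. Both KO libraries were thus below both WT libraries. The relative values were -1.11 and -1.40, and the counting interval of replicate 2 ran from -1.60 to -1.28. Of its coding windows 46.0% were unique, so part of its reads could belong to copies.

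Among the other factors of start codon selection and subunit joining, no common direction was seen. Eif1 was at relative RPF values of 0.65 and 0.53, the second from 3 and 5 reads. Eif1b, its paralogue, was at -2.34 and 0.34, Eif1a at 1.00 and -0.22, Eif1ax at -0.14 and -0.33 and Eif5b, the GTPase that joins the subunits, at 0.75 and -0.12. Eif6, which keeps the large subunit from joining too early, had RPF values in replicate 1 of 415 RPKM (WT) and 163 (KO), and in replicate 2 of 118 and 196, so the genotypes changed places between replicates. Its counting interval in replicate 2, from 0.57 to 0.92, lay above 0.

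In the eIF2 group, 2 members were lower and 4 higher in both replicates of RPF, with medians of 0.32 and -0.23. The counts are 18.2% and 36.4% of the group, beside 24.4% of tested genes on each side. Eif2a, an alternative carrier of initiator tRNA that is not a subunit of eIF2, had 51.3 RPKM in WT RPF and 5.35 in KO RPF in replicate 1 and 12.6 and 10.3 in replicate 2, from 106 and 95 reads. Its relative values of -2.69 and -0.24 had the same sign, but the interval in replicate 2 reached from -0.70 to 0.13 and the adjusted p was 0.471. Eif2s1, the alpha subunit whose phosphorylation shuts down initiation, had 153 and 234 RPKM, then 18.4 and 13.8, in opposite directions. The subunits of eIF2B, the exchange factor, also scattered: Eif2b1 was at 0.49 and 0.57, Eif2b2 at 0.19 and 0.33, Eif2b3 at 0.57 and -1.05, Eif2b4 at -0.42 and 0.44 and Eif2b5, its catalytic subunit, at 1.08 and 0.05. In RPKM, Eif2b5 had 27.4 and 42.6, then 16.9 and 17.2 in RPF. Eif2s3y showed the widest split of all members, with 35.8 and 52.7 RPKM in RPF of replicate 1 and 7.53 and 0.431 in replicate 2, where the KO library held 2 reads against 32 in WT while both input libraries held 868.

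In eIF3, 4 of 12 members were lower in both replicates of RPF and 1 was higher. The counts are 33.3% and 8.33% of the group, beside 24.4% of tested genes on each side. Eif3i and Eif3b, which belong to the core of eIF3 also found in yeast, and Eif3d were lower, at -1.44 and -0.37, -0.74 and -0.61, and -0.92 and -0.32 relative to the median gene, and Eif3e was at -0.15 and -0.11. Eif3f was higher, at 1.15 and 0.18, with an RPF of 30.4 RPKM in WT and 49.5 in KO, then 115 and 128. Replicate 1 alone gave the large values: Eif3c and Eif3l were at -2.32 and -2.02 there but at 0.00 and 0.46 in replicate 2, where Eif3c rested on 1963 and 2107 reads. Eif3a had 654 and 793 RPKM in RPF, then 76.1 and 65.8, Eif3e had 357 and 234, then 20.8 and 18.9, and Eif3h had 160 and 82.7, then 47.2 and 48.8. No subunit passed the test, and in each replicate the subunits lay on both sides of the median gene. Whether subunits of one complex move together was not tested.

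The eIF4 group was the one in which no member was higher in both replicates of RPF. Of its 15 members 8 (53.3%) were lower in both, where 24.4% of tested genes fell on each side. The group medians were -0.79 and -0.22, and the difference from other groups was not tested. Eif4h, a helper of the helicase, was at -1.12 and -0.58 and Eif4ebp2, a repressor that binds eIF4E, at -0.87 and -0.72. For both, the counting interval of replicate 2 lay below 0, from -0.78 to -0.43 and from -1.37 to -0.16. Eif4a3, the helicase of the exon junction complex, had an RPF of 50.9 RPKM for WT and 9.54 for KO in replicate 1 but 49.5 and 44.3 in replicate 2, with an interval from -0.40 to 0.08. Eif4g1, the main scaffold of the cap complex, had 106 and 46.3, then 67.0 and 54.2, with relative values of -0.72 and -0.28 and an interval from -0.41 to -0.20. Eif4a1 was at -1.26 and -0.20, Eif4a2 at -1.07 and -0.22, Eif4g3 at -0.38 and -0.49 and Eif4enif1, which carries eIF4E into the nucleus, at -0.41 and -0.46. The smallest adjusted p in the group was 0.839, that of Eif4a3.

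The cap-binding protein and its best-known repressor did not keep a direction. Eif4e had 17.1 RPKM in WT RPF and 6.92 in KO RPF in replicate 1 and 3.49 and 4.08 in replicate 2, the latter from 11 and 14 reads. Eif4ebp1 had 27.6 and 9.75, then 11.8 and 22.1, from 20 and 41 reads. Eif4e3, another cap-binding homologue, went from 72.1 to 19.5 in replicate 1 and from 9.33 to 27.5 in replicate 2, relative values of -1.40 and 1.54. Its counting interval in replicate 2, from 0.93 to 2.23, lay above 0, so the opposite directions of the 2 replicates were not within counting error of that replicate.

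**Figure D4:**
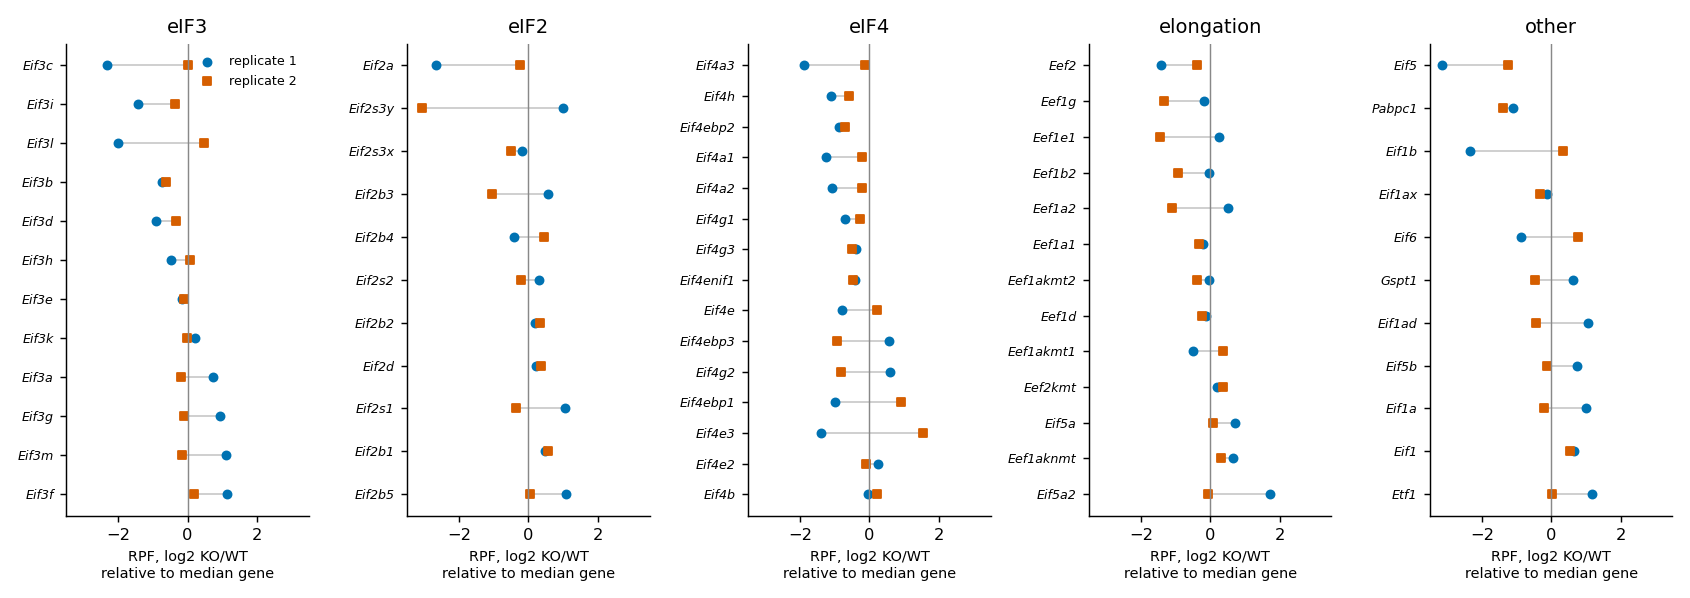
Relative log2 KO/WT in RPF (x axis) of each tested factor (rows), by group, with circles for replicate 1 and squares for replicate 2 joined by a line. In the eIF4 panel 8 of 15 members have both points below 0 and none has both above, where 24.4% of tested genes fell on each side. In the other group Eif5 and Pabpc1 stand at the lower end.

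Among elongation factors, 6 of 13 were lower in both replicates of RPF and 3 higher, with medians of -0.05 and -0.33. The counts are 46.2% and 23.1% of the group, beside 24.4% of tested genes on each side. Eef2 had 1156 RPKM in WT RPF and 314 in KO RPF in replicate 1 and 307 and 233 in replicate 2, from 3825 and 3160 reads. Eef1a1 had 1173 and 741, then 234 and 183. Both KO values lay below the WT value of the same replicate for each gene, with relative values of -1.42 and -0.37 for Eef2 and of -0.20 and -0.33 for Eef1a1. The subunits of eEF1B, which recharges eEF1A, were also lower: Eef1b2 at -0.05 and -0.94, Eef1d at -0.12 and -0.23 and Eef1g at -0.19 and -1.34, the last from 69 and 27 reads. Eif5a had 434 and 514, then 198 and 205 RPKM in RPF, with relative values of 0.70 and 0.08. The smallest adjusted p among elongation factors was 0.915.

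The release factors were not lower in RPF of KO in both replicates. Etf1 had 603 RPKM (WT) and 994 (KO) in replicate 1, and 142 and 142 in replicate 2, from 902 and 979 reads, with relative values of 1.18 and 0.02. The interval of replicate 2 ran from -0.14 to 0.12. Gspt1 had 108 and 122, then 59.4 and 42.2, with relative values of 0.63 and -0.46.

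**Figure D5:**
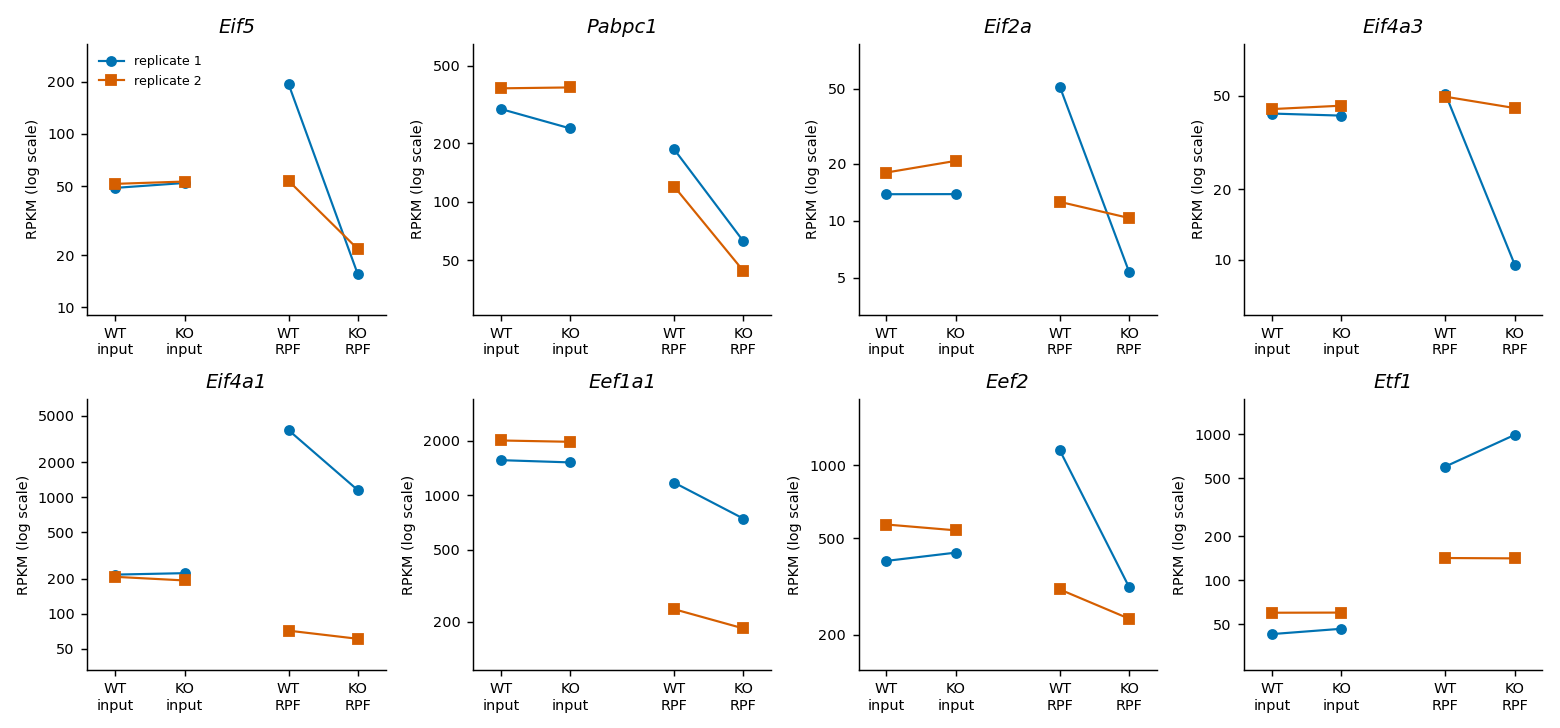
RPKM on a log scale (y axis) of 8 factors in each library (x axis: WT and KO input, WT and KO RPF), with circles for replicate 1 and squares for replicate 2, and lines joining WT and KO of a replicate. Eif5 and Pabpc1 lie lower in KO than in WT in RPF of both replicates, and the footprint level of Eif4a1 lies at 3779 and 1151 RPKM in replicate 1 but at 71.5 and 60.8 in replicate 2.

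RPF relative to input, the translation efficiency, followed the footprints. Relative KO/WT was lower in both replicates for 21 members and higher in both for 12, where 24.7% of tested genes fell on each side, with medians of -0.14 and -0.16. Here the 12 members under 50% unique windows held 7 of the lower and 1 of the higher ones, while the 50 others, at 14 and 11, were nearly even. Eif5 was again the only member to pass, at relative values of -3.28 and -1.32 and a fitted -2.52 (SE 0.63, adjusted p = 0.0341 by limma), among 13 genes of 10320 (0.126%) lower in KO, with 8 higher. Without the replicate block the adjusted p of Eif5 was 1, and without the intensity trend it was 0.0959. At an unadjusted p under 0.05, 5 of the 62 members were lower and 0 higher, against 400 and 186 of the 10320 tested genes. Here too the fits include the shift of the median gene, -0.42 in replicate 1 and -0.02 in replicate 2.

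By group, eIF4 had 7 of 15 members lower and 1 higher in both replicates of translation efficiency (46.7% and 6.67%). The counts were 5 and 2 of 12 for eIF3, 5 and 4 of 13 for elongation and 2 and 3 of 11 for eIF2. Of all tested genes, 24.7% fell on each side. Pabpc1 was at -0.82 and -1.43 (adjusted p = 0.771), Eif2a at -2.73 and -0.45 (0.429) and Eif4a3 at -1.91 and -0.19 (0.871). For Pabpc1 the smaller value in replicate 1 went with its lower KO input there, 238 against 300 RPKM. The difference between groups was not tested.

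Of 30 other genes of the pathway, among them the eIF2 kinases, Mtor and its targets and the ribosome rescue factors, all 30 were tested and 0 passed in input, RPF or translation efficiency. In RPF 5 (16.7%) were lower and 6 (20%) higher in both replicates, where 24.4% of tested genes fell on each side. The relative median was 0.49 in replicate 1 and -0.15 in replicate 2. Ppp1r15b, a subunit that directs the dephosphorylation of eIF2 alpha, was at -1.84 and -0.33, and Paip2, which binds poly(A)-binding protein and represses translation, at 0.70 and 1.13. These genes were listed by role, with earlier results of these data known, and Ppp1r15b and Paip2 were named after the values were seen.

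Members that did not enter the test were few. Eef2k, the kinase that inactivates eEF2, had 0.568 RPKM in WT input and 0.385 in KO of replicate 1 and 1.33 and 0.734 in replicate 2, with RPF of 12.9 and 17.2, then 1.52 and 2.18. Pabpc4, a paralogue of Pabpc1 with 8.33% unique windows, had 10.9 and 14.5, then 18.6 and 12.96 RPKM in input but only 0.798 and 0.725, then 0.550 and 0.202 in RPF. Both therefore missed the mean of 1 RPKM, Eef2k in input and Pabpc4 in RPF. Eif3j1 and Eif3j2 were among 10 members listed in the table of replicate 1 alone and Eef1akmt4 was listed in that of replicate 2 alone, so they are not counted among the 64.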

How the data were processed

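The authors deposited RPKM values of 8 libraries in a table for each replicate. The second table repeats the column names of the first, so its columns were assigned by the group they name and by the table's own name (replicate 2), although the series' design text states that there was no replicate. TopHat2 2.0.14, Cuffnorm, bcl2fastq and mm10 are named in the submitters' processing notes; how the table of replicate 2 was counted is not given in the sources used here. Columns of translation efficiency, which hold the authors' own log2 ratios, were not used. Rows holding a date in place of a symbol (27 of 20605 and 19 of 11801) were left out, and older symbols were updated through RefSeq (GRCm38.p6, the assembly of mm10), which added 3 members. In replicate 2, RPKM times gene length gave whole reads, within 0.01 read, for 97.2% of genes in RPF and 76.8% in input. The depth of replicate 1 is unknown. In replicate 2, 242 genes stood on a length of 1 base, none of them a member. Reads carry no molecular identifiers, so intervals (95%, exact) cover counting error only.

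Values were tested as log2(RPKM + 0.5) with limma 3.58.1 (R 4.3.3), a scale that understates changes of low genes, for genes reaching 1 RPKM on average in input and in RPF. Translation efficiency was log2 RPF minus log2 input of one lysate. The replicate entered as a block, because each replicate has a table of its own. Each gene thus had 1 residual degree of freedom, and its variance was moderated across genes with an intensity trend. In RPF and translation efficiency this left a gene's own spread little weight. In RPF, Pabpc1, at log2 KO/WT of -1.56 and -1.43 as deposited, had an SE of 0.597. Eif2a, at -3.14 and -0.27, had an SE of 0.636. These p-values therefore hardly measure how far the 2 replicates of a gene differ. All tests were two-sided at an adjusted p of 0.05 (Benjamini-Hochberg over all tested genes). The code was run on simulated data with known changes and the same noise in every gene, to check bias and the rate of small p-values without a change. That simulation held no intensity trend and no shift of the median gene, so it is not a check of the calls made here. Deviations of same-numbered libraries correlated at 0.781 in input and 0.849 in RPF across genes. The members, their groups and the gene lists were chosen with earlier results of these data known. Values are given for members past the threshold, for the 4 in each measure with the largest relative mean of one sign, for 20 members fixed by role and for the highest in WT input of each group; other members named, among them Eif2s3x, Eif3i, Eif4e3 and Eif4h, were chosen after their values were seen. Alternatives were another pseudocount, filter, scaling, block, trend or symbol matching, and leaving out single libraries.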

Additional observations from a re-analysis of the deposited data

How the results depend on the processing

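Eif5 was the only call on a member, and it was lost under 8 of the 14 alternatives in RPF and in translation efficiency. With libraries centred on their medians, with quantile normalization and with no replicate block, 0 genes and 0 members passed in either measure; with no intensity trend 13 genes passed in RPF and again 0 members in both. Its fitted RPF value was -2.21 centred, -2.20 by quantile and -2.45 with no replicate block or no trend, and adjusted p ran from 0.0193 to 1 over all alternatives. Leaving out single libraries, without the block, left 0 to 3 genes in RPF, 0 to 2 in translation efficiency, 0 to 50 in input and 0 members in any, and Eif5 stayed lower, between -3.37 and -1.53 in RPF. The median of members relative to all genes then ran from -0.36 (without WT replicate 2) to 0.022 (without WT replicate 1) in RPF, from -0.38 (without KO replicate 1) to 0.026 (without KO replicate 2) in translation efficiency and from -0.037 to 0.020 in input, but these fits set libraries of one replicate against the other; within each replicate the members' median was below 0 in both measures. In translation efficiency that median was -0.25 with no filter on low values, -0.20 by quantile and -0.24 with symbols as written. Eif3a in input ran from -0.998 to 0.35 over these fits, turning to 0.09 without WT replicate 2 and to 0.35 without KO replicate 1, again across replicates, while within each replicate it was lower in KO. With a pseudocount of 0.1, 35 genes passed in translation efficiency, and the members' median RPF/input in WT of replicate 1 was -0.21, or -0.12 with a pseudocount of 1. The cause of the other changes was not tested. Of the other values of single members, 846 stayed within their own spread or side of the threshold and 186 moved by more than the spread between replicates. Few RPF reads limit replicate 2 for Eif1, Eef1a2, Eif5a2, Eif4ebp3, Eif4e and Eif2s3y, among others, and precision in replicate 1 is unknown.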
